A study of Mus musculus with 2 samples.

Results

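The nuclear-encoded subunits of the respiratory chain were examined in single cells of the murine dentate gyrus (DG), the part of the hippocampus in which granule neurons are born throughout life. Members were all genes of the filtered count matrix whose symbol follows the naming of the subunits of complexes I (Nduf), II (Sdh), III (Uqcr and Cyc1), IV (Cox4 to Cox8) and V (Atp5), without the Ndufaf assembly factors. The rule found 83 of 15474 genes, with 37 in complex I, 4 in complex II, 9 in complex III, 16 in complex IV and 17 in complex V. It used symbols and no measured value. Of these members, 3 (Atp5s, Atp5sl and Cox7a2l) carry a subunit-like symbol but code for coupling, assembly or supercomplex factors and were kept as the rule gives them.

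Cells came from C57BL/6J mice of 4 to 5 weeks and were sorted into 384-well plates for SORT-seq, a plate-based method that counts the 3′ ends of polyadenylated transcripts by unique molecular identifiers (UMIs). The fresh plate held freshly isolated cells pooled from 3 mice. A dead cell stain was used to sort only viable cells, a step the paper gives for the fresh cells alone. A difference between the plates therefore also carries this selection. The MeOH-fixed plate held cells pooled from 4 mice that had been fixed in methanol, stored in the deep freezer for 3 weeks and rehydrated in SSC buffer. With 1 library per condition no difference could be tested, and all intervals are 95% intervals for counting error only. After filtering by the authors, 64 fresh and 132 MeOH-fixed cells in 8 annotated identities remained.

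The respiratory complexes pass electrons along the inner mitochondrial membrane, pump protons across it, or use the resulting gradient. Complexes I and II take electrons from NADH and succinate, complex III passes them to cytochrome c, complex IV reduces oxygen, and complex V uses the proton gradient to make ATP. Most subunits are coded in the nucleus and imported, whereas a few core subunits of complexes I, III, IV and V are coded by mitochondrial DNA, so that both genomes have to contribute to each of these complexes. Firing neurons depend on this supply, and the maturation of newborn granule neurons is accompanied by a growing mitochondrial network.

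The filtered cells held 534122 UMIs on the fresh and 729018 UMIs on the MeOH-fixed plate, with medians of 6332 and 3463 transcripts per cell. Granule neurons, here the immature and mature neurons together, numbered 7 among fresh and 44 among fixed cells, so that a difference between the plates over all cells also carries a difference in composition. The markers of 6 of the 8 identities were highest in their own identity on both plates. On the fresh plate, however, the markers of immature neurons were highest in nIPCs and neuroblasts, and those of mature neurons were highest in the cells labelled immature neurons. The fresh plate had only 2 cells labelled mature neurons, with 15 UMIs of members between them, and in 1 of these 58.2% of all counts came from the ribosomal RNA locus Rn45s. In the cells labelled endothelial, 5 mural cell markers summed to 6395 CPM on the fresh and 5887 CPM on the MeOH-fixed plate, above the 770 and 1646 CPM of the endothelial markers Prom1 and Esam. The 4 parvalbumin interneuron markers (Pvalb, Gad1, Gad2 and Kcnc1) were highest in the cells labelled immature neurons on the fresh plate, at 309 CPM. On the MeOH-fixed plate they were highest in the cells labelled mature neurons, at 616 CPM. Pvalb itself added at most 1 UMI to these values, which otherwise came from Gad1, Gad2 and Kcnc1. Of the Pvalb UMIs, 55 of 56 on the fresh and 2 of 2 on the MeOH-fixed plate lay in cells with skeletal muscle transcripts, described below. None of those cells was labelled immature neurons on the fresh or mature neurons on the MeOH-fixed plate. Whether interneurons were among the cells called granule neurons here was not tested. Of 4 red blood cell markers, 1 was listed, and it had no count in the filtered cells.

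The plates shared 24 barcode numbers among their filtered cells, of which 4 carried the same identity on both. Counts of 5 skeletal muscle genes (Acta1, Atp2a1, Ckm, Tnnt3 and Pvalb) fell at the same barcode numbers on both plates. On the fresh plate 16 of 384 barcodes held at least 5 such counts. All 16 had odd numbers between 211 and 301, and they took 1052 of the plate's 1095 muscle counts. On the MeOH-fixed plate these same numbers took 102 of 110 muscle counts, and the 7 barcodes with at least 5 such counts were all among them. Where the muscle transcripts came from was not tested. They bear on the muscle isoforms of complex IV described further on, and the summed ratio of the members and the number of members 1.5-fold higher are also given without the barcode numbers that the plates share. Whether counts of the fresh plate also reached the MeOH-fixed plate for other genes was not tested, and all values of the fixed plate carry this limit.

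**Figure D1:**
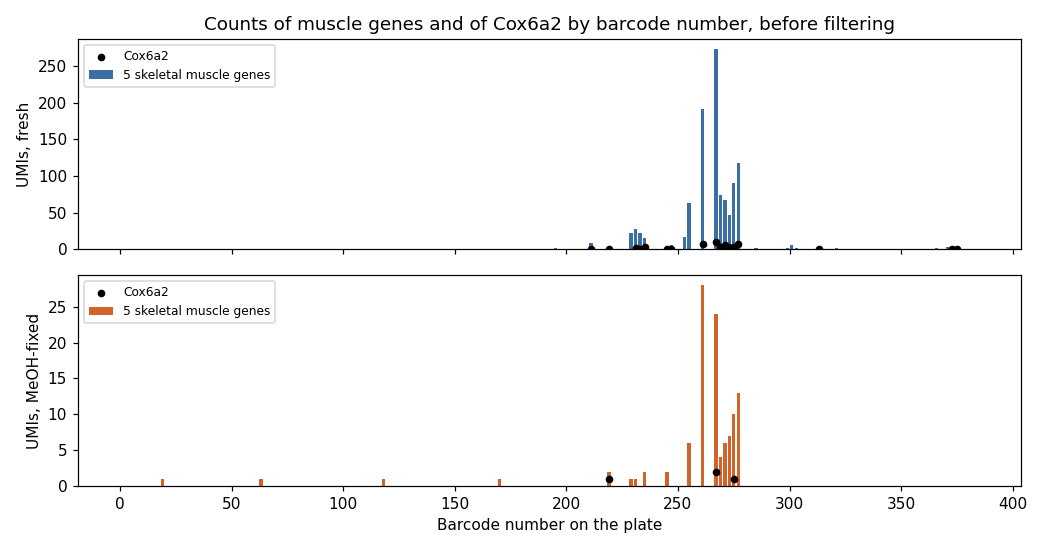
UMIs of 5 skeletal muscle genes (bars) and of Cox6a2 (points) at each of the 384 barcode numbers of the fresh plate (top) and the MeOH-fixed plate (bottom), before filtering, with separate linear axes. The muscle counts of both plates sit at the same odd numbers, with 1052 of 1095 fresh and 102 of 110 MeOH-fixed counts at 16 numbers.

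As a group, the members took a larger share of the counts on the MeOH-fixed plate. They gave 5954 UMIs or 10981 CPM (each gene's part of the plate's filtered counts scaled to 1e+06; interval 10704 to 11264) in fresh cells, and 11385 UMIs or 15495 CPM (15212 to 15782) in MeOH-fixed cells. The MeOH-fixed level was thus 1.41-fold the fresh level, a log2 ratio of 0.50 (0.45 to 0.54). Without the 24 shared barcode numbers the log2 ratio was 0.52. CPM is a relative measure, and the sign of the difference depended on it: the members averaged 93.1 counts per fresh cell and 86.3 per fixed cell, for a log2 ratio of −0.11, and per spike-in count the log2 ratio was 0.01.

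At the level of individual genes, 72 of the 83 members had at least 100 counts over both libraries and were compared, as were 2514 genes in all. Of these 72 members, 30 were at least 1.5-fold higher in MeOH-fixed cells (41.7%, against 27.8% of all genes compared) and 0 were at least 1.5-fold lower (against 11.3%). The median log2 ratio was 0.49 over the members and 0.22 over all genes compared. By another criterion, Poisson intervals that do not overlap, 24 members (33.3%) were higher, against 26.2% of all genes, and 0 were lower, against 11.2%. By this criterion the share of higher members was thus close to the background, while no member fell below the fresh level by either criterion. Without the shared barcode numbers 37 members were at least 1.5-fold higher, 27 of them among the 30, against 33.1% of all genes, and the medians were 0.60 and 0.25.

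**Figure D2:**
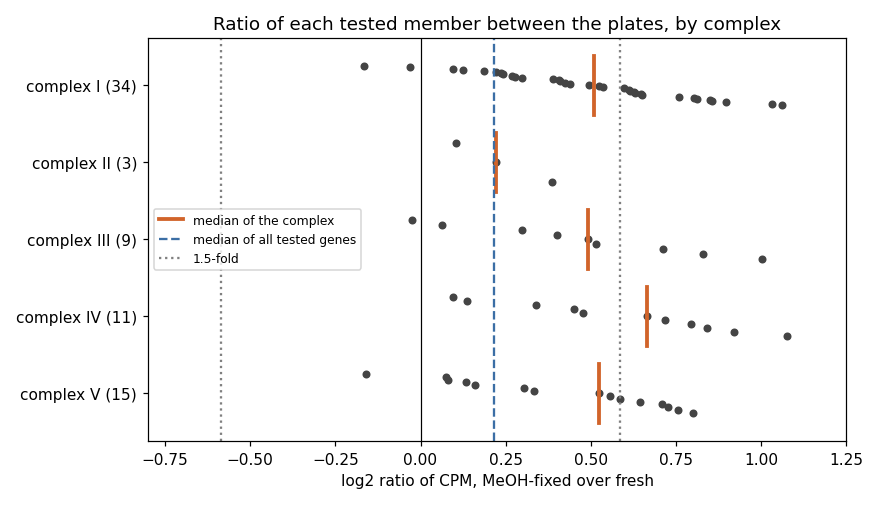
log2 ratio of CPM in MeOH-fixed over fresh cells for each of the 72 members compared (points), by complex, with the number of members in parentheses, the median of each complex (orange bar), the median of all 2514 genes compared (dashed line at 0.22) and the 1.5-fold limits (dotted). In complexes I, III, IV and V the median lies to the right of that of all genes, and no point lies beyond the lower limit.

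The rank of the members hardly differed between the plates, with a Spearman rho of 0.887 between fresh and MeOH-fixed CPM over 72 members. This is a description across genes, which share libraries and are not independent. Each transcript is counted once at its 3′ end, so CPM compares molecules between genes without division by length. The length of the exons had little relation to the ratio (rho −0.120 over 71 members).

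**Figure D3:**
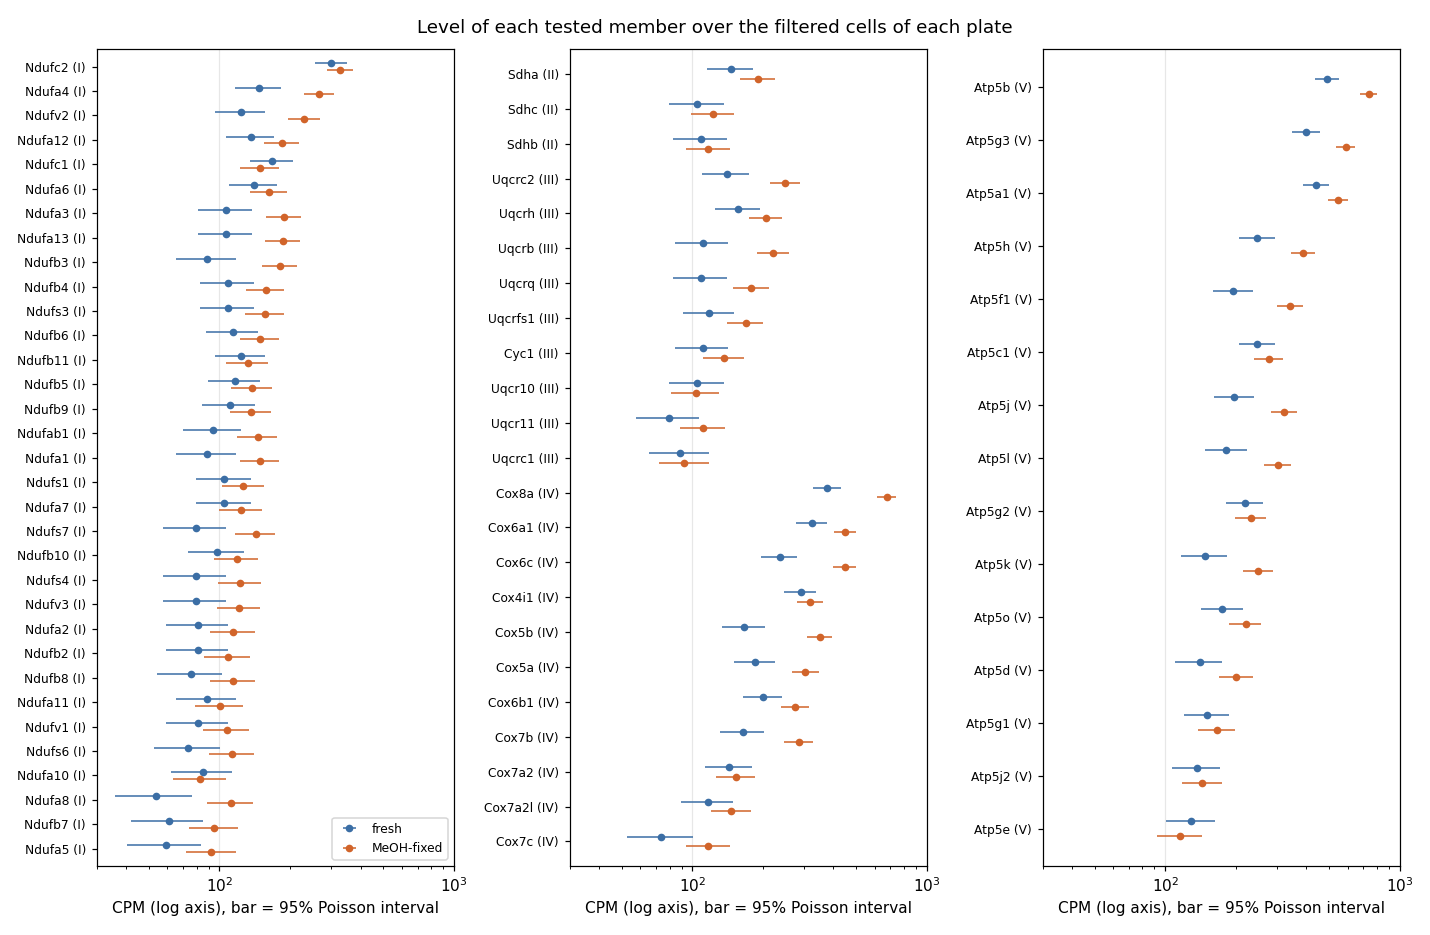
CPM (log axis) of 71 of the 72 members compared, over 64 fresh (blue) and 132 MeOH-fixed (orange) filtered cells, with 95% Poisson intervals, ordered by mean CPM within complexes I (left), II to IV (middle) and V (right). Atp5b and Cox8a have the highest MeOH-fixed levels, and the MeOH-fixed point lies to the right of the fresh point for all but 4 of the members shown.

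Complex I, which oxidises NADH and is built around 7 mitochondrially encoded and many nuclear-encoded subunits, summed to 3680 CPM in fresh and 5135 CPM in fixed cells, for a log2 ratio of 0.48 (0.40 to 0.56). Its 34 compared members ranged from 53.5 to 301 CPM in fresh and from 83.0 to 328 CPM in MeOH-fixed cells. Of these, 15 were at least 1.5-fold higher on the MeOH-fixed plate (44.1%, against 27.8% of all genes). By intervals that lie apart, 8 were higher (23.5%), which is below the 26.2% of all genes. The most abundant was Ndufc2, an accessory subunit of the membrane arm, at 301 CPM (256 to 350) in fresh and 328 CPM (288 to 372) in fixed cells, which overlap. Next by the mean of the plates came Ndufa4 at 148 CPM (117 to 184) and 267 CPM (231 to 307), where the intervals lie apart. The NDUFA4 protein was first purified with complex I and is now counted with complex IV. The log2 ratio of Ndufa4 was 0.85, against medians of 0.51 in complex I and 0.67 in complex IV.

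Ndufa8 and Ndufb3, both accessory subunits, showed the highest ratios of complex I. Ndufa8 went from 53.5 CPM (35.8 to 76.8) to 112 CPM (88.7 to 138), and Ndufb3 from 88.5 CPM (65.3 to 117) to 181 CPM (152 to 214), log2 ratios of 1.06 and 1.03. At the other end, Ndufc1 stood at 168 CPM (135 to 206) in fresh and 150 CPM (123 to 180) in MeOH-fixed cells, and Ndufa10 at 84.8 CPM (62.1 to 113) and 83.0 CPM (63.5 to 107). The intervals of both overlap widely. The Ndufa10 value depended on composition: without immature and mature neurons its log2 ratio was −0.98, and with equal weight for each identity −0.69, so that it became the only member at least 1.5-fold lower in either of these settings. Ndufs5 was almost absent, with 0 UMIs in fresh cells, where the interval reaches up to 6.80 CPM, and 1 UMI in MeOH-fixed cells. Of the 60-base stretches at its 3′ end, 27.8% also occur in BC002163, which likewise had 0 and 1 UMI, and reads without a unique best position had been dropped by the authors.

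Complex II, succinate dehydrogenase, is the only complex coded wholly in the nucleus and also a citric acid cycle enzyme. It had the smallest difference, from 432 CPM (378 to 490) in fresh to 501 CPM (451 to 555) in fixed cells, for a log2 ratio of 0.21 whose interval (−0.03 to 0.46) includes 0. Sdha, the flavoprotein, stood at 146 CPM and 191 CPM, Sdhb, the iron-sulfur subunit, at 109 CPM and 117 CPM, and Sdhc, a membrane anchor, at 105 CPM and 122 CPM. Sdhd, the other anchor, had fewer than 100 counts, at 71.9 CPM and 70.7 CPM. Neither complex II as a sum nor any of its 4 genes had intervals that lie apart between the plates.

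Complex III, which hands electrons from ubiquinol to cytochrome c, summed to 1018 CPM in fresh and 1468 CPM in fixed cells, for a log2 ratio of 0.53 (0.38 to 0.68). Uqcrb, a small subunit near the quinone site, had the highest ratio, from 111 CPM (84.5 to 142) to 222 CPM (189 to 259), a log2 ratio of 1.00. Of its 3′ stretches, 40.6% also occur in pseudogenes and other loci. By the mean of the plates the core protein Uqcrc2 was the most abundant member, at 140 CPM (110 to 175) and 249 CPM (214 to 288), followed by the hinge protein Uqcrh at 157 CPM (125 to 194) and 207 CPM (175 to 242). Uqcrc2 shares 52.3% of its 3′ stretches with Pdzd9, which overlaps it on the opposite strand. Its partner core protein Uqcrc1 (88.5 CPM and 92.5 CPM, log2 ratio 0.06) and Uqcr10 (105 CPM and 103 CPM, log2 ratio −0.02) differed by less than counting error between the plates. The intervals of the log2 ratio lie apart for Uqcrb (0.57 to 1.45) and Uqcr10 (−0.54 to 0.50).

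Complex IV, cytochrome c oxidase, had the largest log2 ratio of the summed CPM, 0.60 (0.50 to 0.70), from 2332 CPM (2205 to 2464) to 3533 CPM (3399 to 3672). The interval of this ratio overlaps those of complexes I, III and V. All 11 compared members lay above zero, and 6 were at least 1.5-fold higher (54.5%, against 27.8% of all genes). Cox5b, a zinc-binding subunit on the matrix side, had the highest ratio of all members, going from 166 CPM (133 to 204) to 350 CPM (308 to 395), a log2 ratio of 1.08 (0.72 to 1.44). Cox6c went from 236 CPM (197 to 281) to 446 CPM (399 to 498), a log2 ratio of 0.92. Cox8a was the most abundant member of the complex, at 376 CPM (327 to 432) and 674 CPM (616 to 736). Split by identity, the same counts of Cox5b were higher within 7 of the 8 identities, the exception being oligodendrocytes, where 2 fresh cells gave 9 UMIs. Among the 7 were mature neurons, where the fresh cells had no Cox5b count. Such a number was not particular to Cox5b, as Cox6c and Cox8a were higher within all 8.

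Complex V, ATP synthase, summed to 3520 CPM in fresh and 4857 CPM in fixed cells, for a log2 ratio of 0.46 (0.38 to 0.55). The catalytic subunit Atp5b was its most abundant transcript, at 491 CPM (434 to 554) and 737 CPM (676 to 802), and its partner in the catalytic head, Atp5a1, stood at 441 CPM (387 to 501) and 545 CPM (493 to 601), which overlap. Atp5e, the small epsilon subunit of the central stalk, was the only compared member of complex V below zero, at 129 CPM (101 to 163) and 116 CPM (92.4 to 143), which overlap. Subunit c, which forms the rotating ring, is coded by 3 genes for the same mature protein. Atp5g3 was the highest of them on both plates (400 CPM and 588 CPM), followed by Atp5g2 (219 CPM and 231 CPM) and Atp5g1 (151 CPM and 166 CPM), and the intervals of all 3 lie apart from each other on each plate except those of Atp5g1 and Atp5g2. Of these 3 only Atp5g3 was higher after fixation beyond counting error, at a log2 ratio of 0.56. Atp5g1 and Atp5g2 share 42.2% and 46.1% of their 3′ stretches with other loci, and Atp5l, the g subunit, shares 81.2%, mostly with its pseudogenes.

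Genes that work with the chain were compared in the same way. Of all genes compared, 27.8% were at least 1.5-fold higher in MeOH-fixed cells and 11.3% lower. Of 11 carriers and exchange proteins, 8 had enough counts, and 6 of these were at least 1.5-fold higher in MeOH-fixed cells and 0 lower, with a median log2 ratio of 0.65. Among them were Cycs, which codes for the electron carrier cytochrome c (207 CPM and 396 CPM), and Slc25a4, an ADP/ATP carrier (415 CPM and 636 CPM). Of 17 genes of the citric acid cycle and pyruvate dehydrogenase, 11 were compared, 5 of them higher and 0 lower, with a median of 0.56. Of 40 assembly factors only 4 were compared, of which 2 were higher and 1 lower, and of 73 mitochondrial ribosomal proteins 4 were compared, with 2 higher and 0 lower. Of the 12 regulators of mitochondrial genes that were found, 0 had enough counts. Among them, the coactivator Ppargc1a, had 30 and 25 UMIs. Of 69 compared genes for cytosolic ribosomal proteins, 0 were at least 1.5-fold higher and 7 (10.1%) were lower, which is close to the 11.3% of all genes. By intervals that lie apart 20 were lower (against 11.2% of all genes), and the median log2 ratio of the 69 genes was −0.19. Their sum was 32606 CPM in fresh and 27978 CPM in fixed cells, a log2 ratio of −0.22 over all cells, but it was higher on the MeOH-fixed plate within each of the 8 identities. The lists of the pathway are short, and nothing particular to a list is read from them.

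Summed over all cells, the mitochondrially encoded partners were lower on the MeOH-fixed plate. Their 13 genes summed to 101792 CPM in fresh and 86065 CPM in MeOH-fixed cells. Of 12 compared, 0 were at least 1.5-fold higher (against 27.8% of all genes) and 3 lower (25%, against 11.3%), with a median log2 ratio of −0.09. By intervals that lie apart, 4 of these 12 were higher (33.3%, against 26.2% of all genes) and 6 lower (against 11.2%). The sum was nevertheless higher in fixed cells within nIPCs and neuroblasts (log2 ratio 0.10), OPCs (0.65), microglia (0.70) and the sparse mature neurons. The ones at least 1.5-fold lower were mtNd5, mtNd4l and mtCo1, core subunits of complexes I and IV, with mtNd5 at 5729 CPM and 1785 CPM. Accordingly there were 9.27 mitochondrially encoded counts (9.02 to 9.52) for each nuclear-encoded subunit count in fresh and 5.55 (5.44 to 5.67) in MeOH-fixed cells. When mitochondrially encoded counts were left out of the denominator, the log2 ratio of the members fell from 0.50 to 0.43 and the number of members at least 1.5-fold higher from 30 to 22, all of them among the 30.

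Across the 8 identities, immature neurons had the largest share of counts from the members on both plates. It was 1.54% (1.47 to 1.62) in fresh and 1.95% (19463 CPM, interval 18971 to 19965) in MeOH-fixed immature neurons, against 1.21% and 1.67% in astrocytes and radial glia-like cells (RGLs) and 1.08% and 1.36% in nIPCs and neuroblasts. Endothelial cells stood at 1.07% and 1.37%, OPCs at 0.894% and 1.30%, oligodendrocytes at 0.858% and 0.995%, and microglia at 0.634% and 1.20%. In MeOH-fixed mature neurons the share was 1.05% (0.982 to 1.12), below that of immature neurons, and the intervals of these identities lie apart. The identities were defined by clustering these same counts, so that the differences between them are descriptions without a test.

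Single cells spread widely around these values. Among 25 MeOH-fixed immature neurons the share ran from 1.46% over a median of 1.97% to 3.63%, and among 19 MeOH-fixed mature neurons from 0.548% over 1.02% to 1.48%, so that the highest mature neuron only just passed the lowest immature neuron. The 5 fresh immature neurons fell into 3 deep cells with 461 to 504 member UMIs and shares of 1.56% to 1.59%, and 2 shallow cells with 8 and 30 member UMIs and shares of 0.824% and 0.848%. The fresh value of the immature neurons thus rests on 3 cells. For astrocytes and RGLs, with 18 fresh and 29 MeOH-fixed cells, the medians were 1.13% and 1.51%, and the ranges (0.651% to 2.16% and 0.884% to 2.79%) overlap over most of their width.

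**Figure D4:**
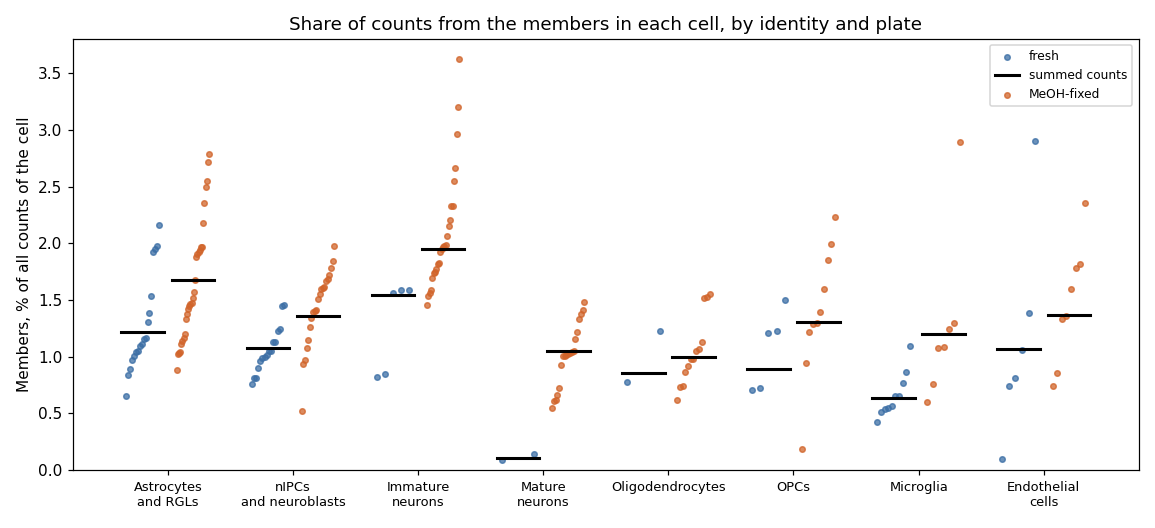
Percentage of a cell's counts from the 83 members, for each of 64 fresh (blue) and 132 MeOH-fixed (orange) cells by annotated identity, with black bars for the summed counts of an identity on a plate. MeOH-fixed immature neurons reach 3.63%, and the bar of the MeOH-fixed plate is the higher one in each of the 8 identities.

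In all 8 identities the summed share was higher on the MeOH-fixed plate. The log2 ratios were 0.46 (0.35 to 0.57) in astrocytes and RGLs, 0.33 (0.23 to 0.44) in nIPCs and neuroblasts, 0.33 (0.25 to 0.42) in immature neurons, 0.54 (0.37 to 0.72) in OPCs, 0.92 (0.64 to 1.19) in microglia and 0.36 (0.10 to 0.62) in endothelial cells. In oligodendrocytes the ratio of 0.21 rested on 2 fresh cells and its interval (−0.0023 to 0.44) includes 0. The ratio of 3.32 in mature neurons rested on the 2 fresh cells described above. Within the 3 identities with most cells, the share of members that were at least 1.5-fold higher exceeded the background by less than over all cells together. In astrocytes and RGLs 26 of 72 members were at least 1.5-fold higher (against 30% of genes) and 6 lower (against 21.1%), with medians of 0.35 for the members and 0.12 for all genes. In nIPCs and neuroblasts 25 were higher (against 28.9%) and 2 lower (against 19.3%), with medians of 0.23 and 0.10. In immature neurons 18 were higher (against 24.2%), close to the background, and 1 lower (against 15.9%), with medians of 0.40 and 0.10. In each of these 3 identities the share of members that were lower was below the background. The sparser identities varied more. In OPCs 38 of 71 members with a count on both plates were higher (against 32.9%) and 8 lower (against 26.6%), and in microglia 39 of 57 were higher (against 41.7%) and 5 lower (against 22.8%), with medians of 0.67 and 1.07. Members and other genes without a count on 1 of the plates were left out of these comparisons. In microglia more members were left out with counts in fresh cells alone, such as Cyc1, Ndufv2 and Sdhc, than in fixed cells alone. The microglial counts and median thus lean to higher values. In oligodendrocytes 22 of 59 were higher (against 30.5%) and 16 lower (against 27.3%), and the median of the members, −0.19, was below the 0.09 of all genes. The members left out there had no count in the 2 fresh cells. Most of them, such as Cox5a, Cox6c and Cox7b, had counts in fixed cells. This median thus leans to lower values, while the summed ratio was above 0, and nothing is read from it.

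The ratios of the complexes differed within the identities, but most of their intervals overlap. In astrocytes and RGLs the interval of the log2 ratio of complex IV (0.64 to 1.11) lay apart from that of complex I (0.05 to 0.43). It overlapped that of complex V (0.28 to 0.68). In microglia complex IV went from 1161 CPM (872 to 1515) to 3462 CPM (2578 to 4552), 2.98-fold, and in astrocytes and RGLs from 2298 CPM to 4211 CPM, 1.83-fold, while complex V in the latter went from 3624 CPM to 5058 CPM, 1.40-fold. In endothelial cells complex V was not higher, with 3798 CPM and 3338 CPM and a log2 ratio of −0.19 (−0.68 to 0.31). Complex II was level in immature neurons, at 639 CPM (490 to 820) and 624 CPM (538 to 719). The microglial values rest on 295 fresh and 177 MeOH-fixed member UMIs in 10 and 7 cells.

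Compared with all other cells of the same plate, 27 of 72 members were at least 1.5-fold higher in immature neurons on both plates (37.5%, against 27.8% of all genes) and 0 were lower (against 17.7%). The 27 came from all complexes, among them the catalytic head subunits Atp5a1 and Atp5b, the complex I core subunits Ndufs1 and Ndufs3, cytochrome c1 (Cyc1) and Sdha. Atp5b stood at 765 CPM (601 to 960) in fresh and 1098 CPM (984 to 1223) in MeOH-fixed immature neurons, against 487 CPM and 491 CPM in astrocytes and RGLs. With both kinds of neurons pooled as granule neurons, 16 members were higher than in other cells on both plates (22.2%, against 26.2%) and 1 lower (against 19.6%), and the summed members were 0.16 (0.06 to 0.27) above astrocytes and RGLs on the log2 scale on the fresh plate and 0.06 (−0.02 to 0.15) above them on the other. When mitochondrially encoded counts were left out of the denominator, the differences turned to −0.06 on the fresh and −0.11 on the fixed plate, and the fresh difference turned to −0.42 when medians over cells were compared.

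Mature neurons, microglia and oligodendrocytes lay at the lower end. In mature neurons 33 of 72 members were at least 1.5-fold lower than in other cells on both plates (45.8%, against 40.4% of all genes), in microglia 26 (36.1%, against 46%) and in oligodendrocytes 21 (29.2%, against 40.2%). Nothing is read from the count in mature neurons, where 15 UMIs of members on the fresh plate leave most members at 0 there. For microglia and oligodendrocytes the share was below the background, so these counts say little about the members. Members that were higher numbered 0 in mature neurons (against 1.51%), 1 in microglia (against 9.86%) and 0 in oligodendrocytes (against 11.8%). The remaining identities lay in between. In nIPCs and neuroblasts 2 members were higher (against 15.1%) and 7 lower (against 26.1%), in OPCs 2 were higher (against 10.2%) and 10 lower (against 27.4%), and in endothelial cells 2 were higher (against 5.89%) and 14 lower (against 43%). The gap to the background was widest for lower members in astrocytes and RGLs. There, 6 of 72 members (8.33%, against 47.6% of all genes) were lower on both plates and 5 (6.94%, against 8.43%) were higher, and the median log2 difference of the members was 0.13 and 0.02 while that of all genes was −0.89 and −0.97. Higher in astrocytes and RGLs were Ndufc2, Ndufa12, Ndufa8, Atp5e and Atp5j2.

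Ndufc2, the leading complex I transcript, stood at 577 CPM in both fresh and MeOH-fixed astrocytes and RGLs, against 343 CPM and 316 CPM in nIPCs and neuroblasts and 155 CPM and 322 CPM in immature neurons. Its level in astrocytes and RGLs rests on 64 and 47 UMIs. Cox8a behaved otherwise: in astrocytes and RGLs it went from 469 CPM (350 to 615) in fresh to 1154 CPM (933 to 1413) in fixed cells, the highest value of the fixed plate, though within counting error of the 919 CPM (554 to 1436) of endothelial cells. In fresh cells it was highest in immature neurons, at 526 CPM (392 to 692), though within counting error of astrocytes and RGLs.

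Over the 6 identities with most cells (oligodendrocytes were taken before OPCs, which had as many) and with both plates summed, the members with the widest range among the 72 compared were Cox7a2l, Ndufa8, Sdhc, Cyc1 and Ndufs4. Cox7a2l stood at 207 CPM in immature neurons and 206 CPM in nIPCs and neuroblasts. It stood at 41.6 CPM in astrocytes and RGLs and at 39.9 CPM in mature neurons, and had no count in oligodendrocytes. On the separate plates it was 191 CPM and 237 CPM in nIPCs and neuroblasts against 27.0 CPM and 61.4 CPM in astrocytes and RGLs, so that the order of these held on both. Ndufs4, an accessory subunit at the NADH-oxidising arm, was likewise highest in immature neurons at 172 CPM and stood at 46.8 CPM in astrocytes and RGLs. Cyc1 ranged from 207 CPM in immature neurons to 16.3 CPM in microglia, where it had 1 UMI. Sdhc ranged from 163 CPM in oligodendrocytes to 9.97 CPM in mature neurons, but the oligodendrocytes of the plates differed, with 40.4 CPM from 1 UMI in fresh and 197 CPM from 18 UMIs in fixed cells. The narrowest ranges were those of Ndufa3 (114 to 181 CPM, 1.58-fold), Uqcrc1 (1.82-fold), Cox4i1 (1.83-fold), Ndufa13 (1.88-fold) and Ndufv3 (1.93-fold). Low counts widen such ranges, and the lowest level of each of the 5 wide ones was 0 or 1 UMI.

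Tissue isoforms of complex IV were dominated by the ubiquitous partner. Cox4i1, which starts the assembly of the enzyme, stood at 290 CPM and 318 CPM, while Cox4i2, the isoform of lung and of oxygen-sensing cells, had 8 UMIs in fresh and 3 UMIs in MeOH-fixed cells. Of the Cox4i2 counts, 5 of 8 and 3 of 3 were in the cells labelled endothelial (257 CPM, interval 83.3 to 599, and 145 CPM, 29.9 to 424), the identity in which mural markers were high. Whether the endothelial or the mural part carried them cannot be told apart here. Cox6b1 (201 CPM and 275 CPM) far exceeded Cox6b2, the testis isoform, with 2 and 1 UMI, and Cox7a2 (144 CPM and 154 CPM) exceeded the heart and muscle isoform Cox7a1, with 2 and 6 UMIs. Cox7b had 164 CPM and 284 CPM. Its partner Cox7b2 and the testis gene Cox8c were not listed in the counts used.

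Cox6a2 and Cox8b, isoforms of heart and skeletal muscle, appeared almost exclusively at the barcode numbers that carried muscle transcripts. Among the filtered cells Cox6a2 had 17 UMIs in 5 fresh cells and 1 UMI in MeOH-fixed cells, and Cox8b had 2 UMIs in 1 fresh cell. The 5 fresh cells with at least 5 muscle counts held 16 of the 17 Cox6a2 UMIs and both Cox8b UMIs, and the single MeOH-fixed Cox6a2 count lay in 1 of the 2 MeOH-fixed cells with as many muscle counts. Among all barcodes before filtering, 49 of 54 fresh and 3 of 4 MeOH-fixed Cox6a2 counts fell at the 16 barcode numbers named above. Cox6a2 accordingly took 8.85% of the Cox6a1 and Cox6a2 counts of the fresh plate, and 0.602% without those cells. These cells had been annotated as astrocytes and RGLs or as nIPCs and neuroblasts. Cox6a1, the common isoform, was at 323 CPM and 449 CPM. Where the Cox6a2 counts of these cells came from was not tested.

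The number of members seen per cell followed depth. In the cells as deposited the median cell had a count for 38 members on the fresh and 30.5 on the MeOH-fixed plate. After thinning each cell to 800 UMIs, which all cells had, the order turned, with medians of 7 (quartiles 5 and 9) in fresh and 10 (7 and 13.2) in MeOH-fixed cells. At 2000 UMIs, with 7 fresh and 28 MeOH-fixed cells left out, the medians were 16 and 21. At 800 UMIs, MeOH-fixed immature neurons had the most members per cell, with a median of 15 (12 and 17), and MeOH-fixed mature neurons a median of 6 (5 and 9).

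The balance of the 2 genomes differed between identities as well. Immature neurons had the fewest mitochondrially encoded counts per nuclear-encoded subunit count, 4.65 (4.40 to 4.92) in fresh and 2.95 (2.86 to 3.04) in MeOH-fixed cells, against 13.1 and 8.85 in astrocytes and RGLs. In MeOH-fixed mature neurons the ratio was 11.2, with a median over cells of 12.4. Both parts of the ratio differed between the neurons: the members took 1.95% of counts in immature and 1.05% in mature MeOH-fixed neurons, and the mitochondrially encoded subunits took 5.74% and 11.7%. OPCs were the only identity in which the ratio was not lower after fixation, at 5.75 (5.21 to 6.37) and 6.18 (5.68 to 6.74), which overlap. In microglia the ratios of 10.7 and 9.13 overlap as well.

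**Figure D5:**
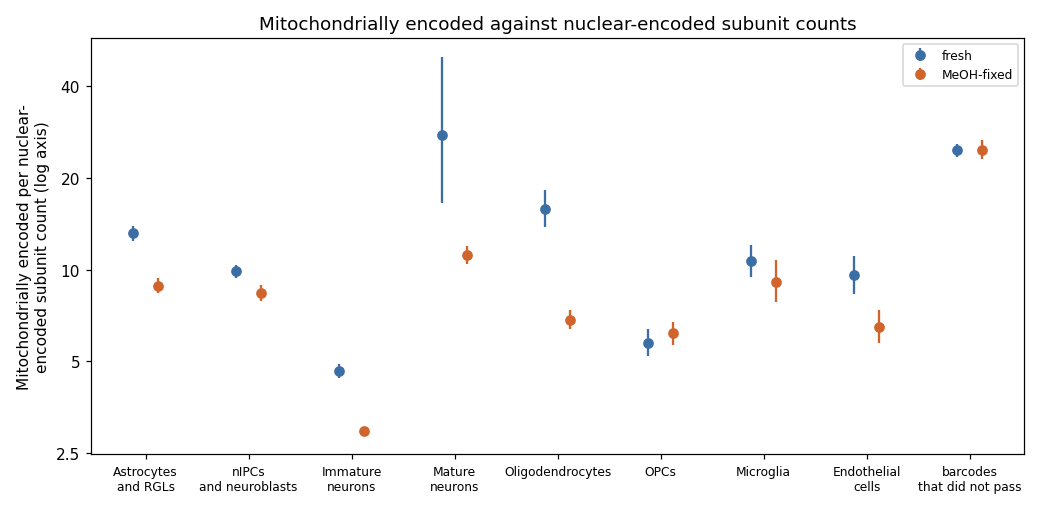
Mitochondrially encoded counts for each nuclear-encoded subunit count (log axis) by identity and in the barcodes that did not pass the filter, for the fresh (blue) and MeOH-fixed (orange) plate, with 95% intervals for counting error. Immature neurons are lowest on both plates (4.65 and 2.95), and the barcodes that did not pass are near 25 on both.

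Promoters of the members were searched for the motifs of 4 factors known to control mitochondrial genes, in RefSeq windows (GRCm38.p6) of 250 bases before to 50 bases after the start, on both strands. Windows were found for 69 of the 83 members. The palindrome of NRF1 was found in 5 of these (7.25%, against 1.07% of all 27025 genes with a window), the YY1 motif AAGATGGCG in 8 (11.6%, against 1.64%), the GABPA motif CCGGAAG in 16 (23.2%, against 9.93%), and the estrogen-related receptor motif TCAAGGTCA in 2 (2.90%, against 0.466%), while 42 members held none of the 4. The motifs differ in letters and do not contain each other. The members with the NRF1 palindrome were Atp5g2, Atp5k, Cox6a1, Ndufa11 and Uqcrc1, whose log2 ratios between the plates ran from 0.06 to 0.75. A match describes the letters only. Shown are those upstream stretches that touch no exon of a protein-coding gene, with the NRF1 palindrome in capitals, 5′ to 3′ on the strand of the gene.
Cox6a1, chr5:115349096-115349135, minus strand: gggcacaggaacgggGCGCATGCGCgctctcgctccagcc
Ndufa11, chr17:56717687-56717726, plus strand: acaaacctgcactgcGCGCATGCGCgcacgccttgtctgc
The palindrome begins 162 bases before the start of Cox6a1, in a stretch that reaches into the noncoding gene Gm42903, and 60 bases before the start of Ndufa11. Both genes were among the compared members, Ndufa11 at 88.5 CPM (65.3 to 117) and 101 CPM (79.1 to 126), whose intervals overlap, and Cox6a1 with intervals that lie apart (277 to 374 and 402 to 500 CPM).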

How the data were processed

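Gene by barcode tables of 2 SORT-seq libraries were used. The authors mapped reads with STAR to GRCm38, kept uniquely mapped reads and deposited expected counts (UMI counts corrected for the 4096 possible UMIs), before and after filtering, together with identities, spike-in counts and percent of mitochondrial counts per cell. R 4.2.0 and Seurat 4.1.0 are named in the submitters' processing notes. Inverting the correction gave whole UMI numbers, none further than 3.64e-12 from an integer.

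CPM was computed from the deposited expected counts of a plate, or of an identity within it, after adding up its filtered cells. The totals of 534122 and 729018 UMIs set the precision, with 1 UMI worth 1.87 CPM in fresh and 1.37 CPM in MeOH-fixed cells. Intervals are exact Poisson for levels and Clopper-Pearson for shares and for ratios of counts, and cover counting error only. Only genes reaching 100 counts in the libraries combined were compared, by a 1.5-fold ratio. Identities are the authors' clusters, and doublets were not called. Cells of a plate are not replicates, so no test was made. The members, the lists and the alternatives were chosen with earlier results of these data known.

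Named were the 2 most abundant members of each complex, all isoform groups and complex II subunits, the 5 highest and 5 lowest ratios, the 5 widest and 5 narrowest ranges over identities, and Ndufa4. Other genes and members given by name, such as Ndufs5, were chosen after their values were seen. The muscle genes, the barcodes shared between plates and the alternatives without Rn45s were likewise added after seeing the data. Shared 60-base stretches were searched in the last 500 bases of GENCODE vM21 transcripts against all other transcripts. The counting of reads by strand was not given in the sources used here, so that overlapping genes may share reads. Promoter sequences are from RefSeq. Protein sequences were not used here. Values of 1 member by name are not reported here, though it is counted in all sums. Scipy 1.17.1, pandas 2.3.3 and numpy 2.4.6 were run under Python 3.11.15 with a fixed seed, figures were drawn in matplotlib 3.10.9, and the ratios were tested on simulated data.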

Additional observations from a re-analysis of the deposited data

Results flagged for a closer look

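Barcodes that did not pass the filter also held counts of the members, outside the comparisons made here. There were 1708 UMIs of members in 320 such barcodes of the fresh plate, which were 1.21% of their counts, and 771 UMIs in 252 barcodes of the MeOH-fixed plate, which were 0.916%. In them there were 24.6 (23.5 to 25.9) and 24.8 (23.1 to 26.7) mitochondrially encoded counts for each nuclear-encoded subunit count, against 9.27 and 5.55 in the filtered cells. The values of the plates, which lie apart in the filtered cells, overlap in the barcodes that did not pass.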

How the results depend on the processing

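With 1 library per condition, no setting tests the difference between the plates. The log2 ratio of all members was 0.43 without mitochondrially encoded counts in the denominator, 0.56 with equal weight for each identity, 0.45 without microglia, 0.36 without immature and mature neurons, 0.010 per spike-in count and −0.11 as a mean count per cell, where the direction turned. With equal weight, complex I stood at 0.60 and complex IV at 0.78, and without neurons complex I at 0.32 and complex V at 0.26. Among the 5 members with at least 500 counts, 2 were at least 1.5-fold higher in MeOH-fixed cells (40%, against 25.6% of 273 genes), 2 were higher in immature neurons, 5 lower in mature neurons and 3 lower in microglia. At a 2-fold limit these last 3 numbers were 6, 20 and 15. The share over all genes was not taken for these identity counts in either setting, so nothing is read from them. The number of members at least 1.5-fold lower in MeOH-fixed cells was 1 with equal weight and 1 without neurons, and 3 with no filter on counts. Granule neurons over astrocytes and RGLs gave a log2 ratio of −0.062 on the fresh and −0.11 on the other plate without mitochondrially encoded counts, 0.35 and 0.22 for immature neurons alone, and 1.53 and 1.72 as mean counts per cell. In fresh cells it was −0.032 with nIPCs and neuroblasts added and −0.42 as medians over cells. Cox6a2 took 0.602% without the cells with muscle counts. The difference in members per cell was −7.5 without thinning and 5 at 2000 UMIs. The log2 ratio of mitochondrially encoded to nuclear-encoded counts between the plates was −0.91 before filtering. The cause was not tested for any of these. Of 110 values for the summed results and counts, 78 stayed within their limits, 27 left them and 5 turned. Of 297 values for named members, 281 stayed within their counting interval and 16 left it, among them Cox7a2l at −0.16 without neurons. No paired analysis was possible because each group has 1 library. Members with few counts, among them all tissue isoforms, are limited by depth.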
